A study of Homo sapiens with 8 samples.

Results

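Cadherins and genes of the epithelial-mesenchymal transition (EMT) were examined in MCF10A, a line of mammary epithelial cells of human origin that forms no tumours, with and without p53. The set held 10 genes, all of which were found among the 20296 genes that the arrays name. They were the cadherins CDH1, CDH2 and CDH3, the structural genes VIM and FN1, and the transcription factors SNAI1, SNAI2, ZEB1, ZEB2 and TWIST1. Members were chosen by gene name, and each gene was read with its brightest probe over the arrays. Cells of the genotypes p53+/+ and p53-/- were exposed for 2 h to doxorubicin, also called adriamycin (ADR), which damages DNA. RNA was taken at 12, 24 and 48 h after ADR, and from untreated cells of each genotype at 0 h. The sample labels give the dose as 0.5 µg/ml, whereas the methods of the study give 2 µg/ml. Each genotype and time had 1 array, 8 in all, so none of the values given here carries an error from replicates. How the p53-/- line was made, and whether it is 1 clone, is not given in the sources used here.

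Cadherins are calcium-dependent adhesion proteins of cell junctions. E-cadherin (CDH1) is the adhesion molecule of most epithelia, P-cadherin (CDH3) is found in basal epithelial layers such as those of the breast, and N-cadherin (CDH2) is typical of mesenchymal and neural cells. In EMT, cells give up junctions and gain motility and matrix proteins, and the factors of the Snail, ZEB and Twist families, which bind E-box sequences in DNA, are its best known regulators.

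Levels are given as the log2 processed signal of a probe relative to the 75th percentile of the same array, so a level describes 1 gene across arrays and cannot be set against the level of another gene. No spot was saturated, and between 49.8 and 62.9% of probes were well above background on an array. The 75th percentile ran from 659 to 816 on the treated p53+/+ arrays and from 1106 to 1193 on the treated p53-/- arrays. The median SD between spots of the same probe on an array was 0.06 for levels above 0, 0.14 for levels from −4 to −2 and 0.33 below −4. All arrays lay on 1 slide with a column of positions for each genotype, and these cannot be told apart. The synthetic spike-in transcripts, 10 in number, had 6 well above background on 7 of the arrays, whereas p53+/+ 48 h had 0.

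The untreated array of p53+/+ cells was closer in profile to the p53-/- arrays than to the treated p53+/+ arrays, and it is called the array labelled p53+/+ 0 h throughout. CDKN1A, the p53 target that encodes p21, read −1.13 on this array, between 2.55 and 2.70 on the treated p53+/+ arrays, and −2.95, −0.94, −0.63 and −0.47 without p53. Across 11828 genes well above background everywhere, the array labelled p53+/+ 0 h correlated at r = 0.991 with p53-/- 12 h, 0.979 with p53-/- 0 h and 0.933 with p53+/+ 12 h, and 4.9, 9.64 and 23.9% of 15811 genes differed from it at least 2-fold on those arrays. Changes in p53+/+ cells measured from it are therefore given together with comparisons that do not use it.

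CDH1 had the widest range of the 3 member cadherins. Its probe had 10 spots and exceeded background clearly on every array. The log2 level of p53+/+ cells was 1.43, 2.00 and 2.11 at 12, 24 and 48 h after ADR. Levels without p53 were −3.53, −3.28, −2.19 and −0.93 from 0 to 48 h, and the array labelled p53+/+ 0 h read −3.12. The 3 treated p53+/+ arrays lay above all other arrays, and of the p53-/- arrays the one at 48 h came nearest to them. The log2 difference between treated genotypes was 4.71, 4.19 and 3.04 at 12, 24 and 48 h, a mean of 15.8-fold. Within p53-/- cells, CDH1 was 2.53-fold above 0 h at 24 h and 6.05-fold at 48 h, but only 1.19-fold at 12 h.

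CDH3, the P-cadherin of basal mammary cells, followed the same order of genotypes. Its level was 3.62, 4.15 and 4.33 in treated p53+/+ cells. Without p53 it was 1.25 before and 1.14, 1.47 and 1.68 after ADR, and the array labelled p53+/+ 0 h read 1.34. Treated p53+/+ arrays were thus apart from the other 5 arrays, which stayed within a narrow band. The difference between treated genotypes was 2.48, 2.69 and 2.65 on the log2 scale, a mean of 6.08-fold, and changed little with time.

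CDH2, the N-cadherin, had the opposite order. Its level in treated p53+/+ cells was 0.34, −0.10 and 0.40. The p53-/- levels were 2.71 untreated and 2.86, 2.35 and 1.49 after ADR, and the array labelled p53+/+ 0 h read 2.98. All treated p53+/+ arrays lay below all others, and the lowest of the others was p53-/- 48 h. The log2 difference of p53+/+ minus p53-/- was −2.52, −2.44 and −1.09, so that p53-/- cells had 4.05-fold more on average. A further CDH2 probe gave a mean treated difference of −1.92 against −2.02 here.

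**Figure D1:**
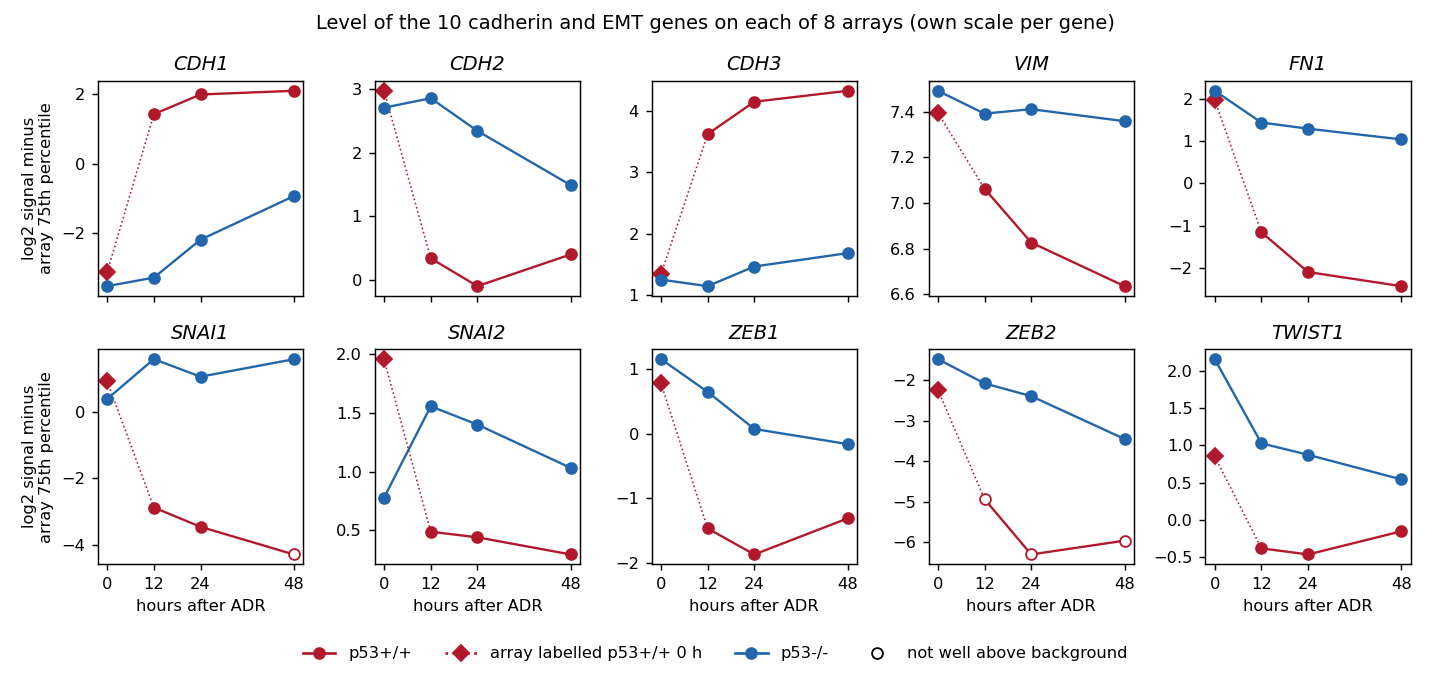
Log2 signal relative to the 75th percentile of the array (vertical axis, own scale per gene) against hours after ADR for each member, with 1 point per array, treated p53+/+ in red circles, p53-/- in blue and the array labelled p53+/+ 0 h as a diamond. The treated p53+/+ points of CDH1 (1.43 to 2.11) and CDH3 (3.62 to 4.33) lie above all other arrays, and those of CDH2 and FN1 below, while the open points of SNAI1 and ZEB2 were not well above background.

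VIM, which encodes the intermediate filament vimentin of mesenchymal cells, was bright on every array and differed least. Its level was 7.06, 6.83 and 6.64 in treated p53+/+ cells. Cells without p53 gave 7.49 untreated and 7.39, 7.41 and 7.36 after ADR, and the array labelled p53+/+ 0 h read 7.40. The treated groups did not overlap, but the log2 difference of −0.33, −0.58 and −0.72 stayed under the 2-fold rule at each time.

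FN1, the matrix glycoprotein fibronectin, showed a wide range. Its level was −1.15, −2.09 and −2.42 in treated p53+/+ cells. Without p53 the untreated level was 2.18, followed by 1.44, 1.29 and 1.04 after ADR, and the array labelled p53+/+ 0 h read 1.96. The highest treated p53+/+ array was below the lowest other array. Treated p53-/- cells had 8.84-fold more FN1 signal on average, with log2 differences of −2.59, −3.38 and −3.46 that grew from 12 to 48 h.

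Among the transcription factors, SNAI1, which encodes the E-box repressor Snail, differed most. Its levels in treated p53+/+ cells were −2.88, −3.46 and −4.30, the last not well above background. The p53-/- arrays read 0.40 untreated and 1.60, 1.07 and 1.59 after ADR, and the array labelled p53+/+ 0 h read 0.93. SNAI1 was thus higher on each treated p53-/- array than on the p53-/- 0 h array, and lower on each treated p53+/+ array than on either 0 h array. The log2 difference between genotypes was −4.48 and −4.53 at 12 and 24 h, and at 48 h p53-/- cells had at least 59.3-fold more. This bound sets the brighter array against the higher of the dim reading and the lowest signal well above background on the dim array.

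SNAI2 encodes Slug, the second Snail factor, which is found in basal mammary epithelium. Its level in treated p53+/+ cells was 0.49, 0.44 and 0.29. Untreated p53-/- cells had 0.78, followed by 1.56, 1.40 and 1.03 after ADR, and the array labelled p53+/+ 0 h had the highest reading of all, 1.96. The treated groups did not overlap, yet the log2 differences of −1.07, −0.96 and −0.74 passed the 2-fold rule at 12 h only. SNAI2 is the member for which the 0 h arrays were furthest apart in the direction opposite to the treated arrays, by 1.18.

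ZEB1, a zinc-finger repressor of epithelial genes, was lower in treated p53+/+ cells. Its level there was −1.47, −1.87 and −1.31. The level without p53 was 1.16 untreated and 0.65, 0.07 and −0.16 after ADR, and the array labelled p53+/+ 0 h read 0.79. The p53-/- array at 48 h was 2.50-fold below that at 0 h, which left a genotype difference of −1.15 there against −2.12 at 12 h. A further ZEB1 probe gave a mean treated difference of −1.47 against −1.74 here.

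ZEB2, the paralogue of ZEB1, was read with 2 probes that differed. The brighter on average was dim in p53+/+ cells after ADR, that is, not well above background on any of the 3 arrays, with readings of −4.94, −6.31 and −5.96. It was well above background on every p53-/- array, at −1.47 untreated and −2.07, −2.39 and −3.45 after ADR, and the array labelled p53+/+ 0 h read −2.23. By this probe, treated p53-/- cells had at least 3.98-fold more over the 3 times, and at least 6.47-, 4.33- and 2.26-fold more at 12, 24 and 48 h. A further ZEB2 probe, printed in 1 spot, was well above background on 7 of the 8 arrays and gave a smaller mean difference of −1.06. It read −4.17, −5.45 and −3.87 in treated p53+/+ cells against −3.46, −3.36 and −3.50 in treated p53-/- cells. The probes thus shared the direction at each time but not the size, and all of the bounds hold for the brighter probe only.

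TWIST1 encodes a basic helix-loop-helix factor that binds E-boxes. Its level in treated p53+/+ cells was −0.38, −0.46 and −0.15. Cells lacking p53 had 2.16 untreated and 1.03, 0.87 and 0.54 after ADR, and the array labelled p53+/+ 0 h read 0.85. The treated groups did not overlap, with log2 differences of −1.41, −1.34 and −0.69. This value rests on a probe printed in 1 spot, and a further TWIST1 probe was not well above background on any array.

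The bases before the annotated starts are shown for the members that were at least 2-fold lower in treated p53+/+ cells and had an entry among RefSeq promoter windows (GRCh38.p14), since the Snail, ZEB and Twist factors bind E-boxes. Of the 10 members, 5 had an entry (CDH2, VIM, FN1, ZEB1 and ZEB2). Each line gives the 250 bases before a start, 5′ to 3′ on the strand of the gene, with matches to the general E-box CANNTG in capitals. ZEB1 and CDH2 have several starts, of which the most upstream is shown. This pattern reads the same on both strands and includes CACCTG and its reverse complement CAGGTG, the form that Snail and ZEB proteins prefer.
ZEB1, chr10:31318167-31318416, plus strand: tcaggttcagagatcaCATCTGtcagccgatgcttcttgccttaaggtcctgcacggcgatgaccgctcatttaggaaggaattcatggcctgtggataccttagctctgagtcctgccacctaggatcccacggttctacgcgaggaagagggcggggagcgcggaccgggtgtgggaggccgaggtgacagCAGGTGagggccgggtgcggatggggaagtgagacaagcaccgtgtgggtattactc
ZEB2, chr2:144520120-144520369, minus strand: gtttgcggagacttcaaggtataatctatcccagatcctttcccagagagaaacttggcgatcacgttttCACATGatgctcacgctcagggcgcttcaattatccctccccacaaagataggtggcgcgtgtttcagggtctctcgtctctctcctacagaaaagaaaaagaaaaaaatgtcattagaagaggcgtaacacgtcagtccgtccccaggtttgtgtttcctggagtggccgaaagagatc
CDH2, chr18:28177131-28177380, minus strand: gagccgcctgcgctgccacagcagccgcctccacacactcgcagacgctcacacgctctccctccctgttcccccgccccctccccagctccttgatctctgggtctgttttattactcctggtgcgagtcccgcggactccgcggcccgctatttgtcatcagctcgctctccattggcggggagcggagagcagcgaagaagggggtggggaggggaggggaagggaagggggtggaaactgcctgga
FN1, chr2:215436069-215436318, minus strand: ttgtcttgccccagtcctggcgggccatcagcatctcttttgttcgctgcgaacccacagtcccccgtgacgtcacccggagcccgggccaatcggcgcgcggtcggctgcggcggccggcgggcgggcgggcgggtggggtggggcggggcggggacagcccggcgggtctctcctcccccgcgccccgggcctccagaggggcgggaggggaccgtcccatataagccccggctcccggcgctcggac
The ZEB1 window held 2 matches, which begin 234 and 57 bases before the start, and the nearer is CAGGTG. The ZEB2 window held 1 match, 180 bases before the start, and the CDH2 and FN1 windows shown held 0. A CDH2 window further downstream (from 28036642) held CAGATG 97 bases before its start. Of the other ZEB1 windows, the one from 31318966 held both CACCTG and CAGGTG. Those from 31320304 and 31321410 held only CAGCTG and CATGTG. Those from 31318568, 31319518 and 31320951 held no match. Of 35116 windows of this length in the RefSeq table, 61.8% held CANNTG and 17.5% held CACCTG or CAGGTG. These are matches of letters only, and no binding was measured here.

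At the 3 treated times, p53+/+ and p53-/- cells were set against each other without any 0 h array. CDH1 and CDH3 were at least 2-fold higher in p53+/+ cells at all 3 times, that is 2 of 10 members, against a background of 6.68% of 15811 genes. CDH2, FN1, SNAI1, ZEB1 and ZEB2 were at least 2-fold lower, that is 5 of 10, against 5.95%. ZEB2 met the rule by its brighter probe, dim on all 3 treated p53+/+ arrays, and its other probe did not meet it. VIM, SNAI2 and TWIST1 missed the rule. The median of the mean differences was −1.44 over the members and 0.04 over all genes.

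**Figure D2:**
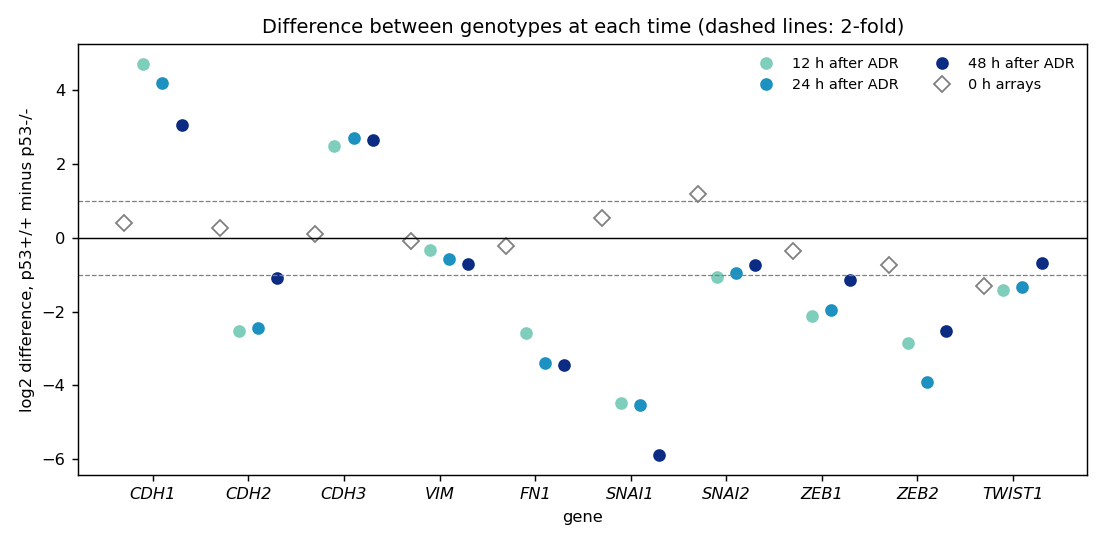
Log2 level in p53+/+ minus p53-/- (vertical axis) for each member at 12, 24 and 48 h after ADR (filled) and for the 0 h arrays (open diamonds), with 1 array per genotype and time and dashed lines at 2-fold. CDH1 (4.71 to 3.04) and CDH3 (2.48 to 2.69) stand above the upper line at every treated time and CDH2, FN1, SNAI1, ZEB1 and ZEB2 below the lower, whereas 8 of the 10 open diamonds lie between the lines.

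The 3 treated times served as replicates of a genotype in a limma fit, which called 9 of the 10 members at a Benjamini-Hochberg adjusted p of 0.05. CDH1 and CDH3 were called higher in p53+/+ cells, against a background of 10.4% of 28947 probes. CDH2, FN1, SNAI1, SNAI2, ZEB1, ZEB2 and TWIST1 were called lower, against 7.46% of probes. By the brightest probe of each gene, limma called 1812 of 15811 genes higher and 1487 lower. SNAI1 had the lowest adjusted p (limma, log2 difference −4.96, standard error 0.38, adjusted p = 0.000849, lower at 3 of 3 times). CDH1 differed by 3.98 (standard error 0.57, adjusted p = 0.00679 from limma). CDH3 differed by 2.60 (standard error 0.26, adjusted p = 0.00205 from limma). Both cadherins were higher in p53+/+ cells at 3 of 3 times, and FN1, CDH2 and the transcription factors lower at 3 of 3. FN1 differed by −3.14 (standard error 0.35, adjusted p = 0.00283 from limma). For CDH2, ZEB1, ZEB2, TWIST1 and SNAI2 the limma adjusted p lay between 0.00861 and 0.0267, with the dim ZEB2 readings entering the fit as measured. VIM, at −0.54 with a standard error of 0.19, did not pass (adjusted p = 0.0923 from limma), though it was lower in p53+/+ cells at 3 of 3 times. These p-values measure the genotype difference against movement over time and not against separate cultures. Without the 24 h arrays, SNAI1 alone kept an adjusted p under 0.05 (0.0426 from limma), and probes called fell from 5176 to 291. Of the called probes 58.3% were higher in p53+/+ cells, a share that was 48.3% with quantile normalization, 45.4% with median scaling, 72.5% with normexp and 14.5% with no scaling.

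At 0 h, most members were nearly level between the arrays of the 2 genotypes. Of the 10, only SNAI2 was at least 2-fold higher on the array labelled p53+/+ 0 h (1.18 on the log2 scale), against 4.12% of all genes. Only TWIST1 was at least 2-fold lower (−1.30), against 5.52%. CDH1, CDH2 and CDH3 differed by 0.41, 0.27 and 0.09. Given the profile of this array, these values are not a comparison of checked genotypes.

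From the array labelled p53+/+ 0 h to the treated p53+/+ arrays, CDH1 and CDH3 were up at least 2-fold at all 3 times, 2 of 10 against a background of 9.51%. The log2 change of CDH1 was 4.55, 5.12 and 5.23, and that of CDH3 was 2.29, 2.81 and 2.99. CDH2, FN1, SNAI1, SNAI2, ZEB1, ZEB2 and TWIST1 were down, 7 of 10 against 6.41%. For ZEB2 this holds for the brighter probe only. The change of FN1 was −3.12, −4.05 and −4.39, and that of SNAI2 was −1.47, −1.52 and −1.66. TWIST1 passed the limit by little, with −1.23 and −1.31 at 12 and 24 h and a smaller change at 48 h. VIM changed by −0.33, −0.57 and −0.76 and missed the rule.

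Measured from p53-/- 0 h instead, on the same p53+/+ arrays, CDH1 and CDH3 were again up at least 2-fold at all 3 times, against 9.42% of genes. Of the 7 members that were down from the other baseline, 6 were down, against 6.94%. SNAI2 was the exception, at −0.29, −0.34 and −0.48. TWIST1 moved away from the limit, to −2.54, −2.62 and −2.31. Within the treated p53+/+ arrays, which need no baseline, CDH1 and CDH3 were 0.67 and 0.71 higher at 48 h than at 12 h. FN1 and SNAI1 were lower by then, at −1.27 and −1.42 (the SNAI1 reading at 48 h being dim), and CDH2, ZEB1 and TWIST1 differed by 0.06, 0.16 and 0.23.

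**Figure D3:**
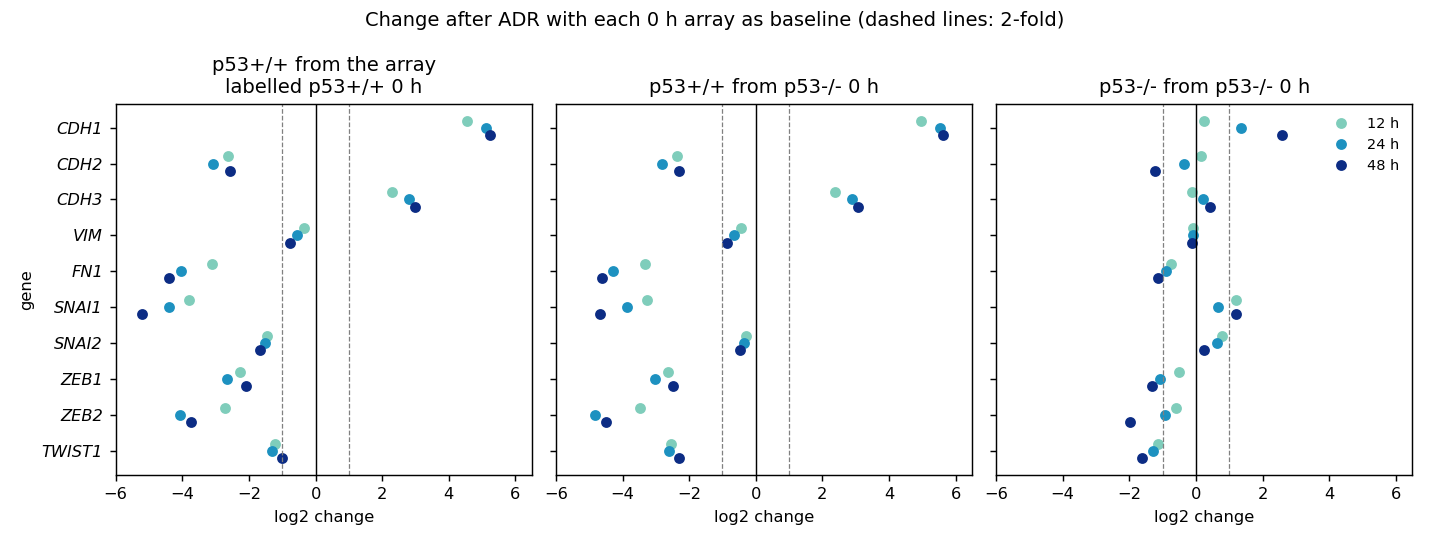
Log2 change after ADR (horizontal axis) of each member at 12, 24 and 48 h, for p53+/+ cells from each of the 0 h arrays (left and middle) and for p53-/- cells from p53-/- 0 h (right), with 1 array per point and dashed lines at 2-fold. The left and middle panels share their directions for all members, SNAI2 falls inside the lines in the middle panel, and CDH1 reaches 2.60 in the right panel at 48 h.

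Among cells lacking p53 fewer members passed the 2-fold rule after ADR. None of the members was up at least 2-fold at all 3 times (0 of 10), against 3.17% of genes, and TWIST1 was the 1 of 10 that was down, at −1.13, −1.28 and −1.61, against 2.10%. CDH1 lay furthest from its 0 h level at a single time, by 2.60 on the log2 scale at 48 h. CDH2 was 0.15 above 0 h at 12 h and 1.22 below it at 48 h on the same scale. ZEB2 was lower at each time, at −0.60, −0.92 and −1.98. SNAI1 was higher at each time, at 1.20, 0.67 and 1.20, and SNAI2 at 0.78, 0.62 and 0.25. The log2 change of CDH3 was 0.43 at 48 h and that of VIM −0.13.

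The limma interaction of genotype and treatment, which asks whether the change after ADR differed between genotypes, called 1 of the 10 members. SNAI1 had an interaction of −5.50 on the log2 scale, p53+/+ minus p53-/- (standard error 0.76, adjusted p = 0.0282 from limma), against a background of 0.746% of probes called lower. None was called higher (0 of 10), against 0.998%. SNAI2, at −2.10, CDH3, at 2.52, and FN1, at −2.92, had limma adjusted p-values of 0.0640, 0.0710 and 0.0999. This fit rests on the array labelled p53+/+ 0 h and could not be fitted without it, and the treated difference above is the comparison that leaves it out. The SNAI1 call was lost without the arrays of any 1 treated time (limma adjusted p from 0.0603 to 0.248) and with time as a block (0.0674). Of the called probes 57.2% were higher in p53+/+ cells, a share that was 45.9% with quantile normalization and 14.0% with no scaling.

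Other genes of the same biology were read from 5 lists, described by counts beside all genes. Of 30 junction and epithelial genes, 28 passed background on 1 or more arrays. In treated p53+/+ cells 13 of the 28 were at least 2-fold higher at all 3 times and 0 were lower, and limma called 15 higher and 0 lower. All genes gave 6.68% higher and 5.95% lower by the same rule of size. Over all 15811 genes limma called 1812 higher and 1487 lower. The median difference of the list was 1.35, against 0.04 over all genes. NECTIN4, a nectin of adherens junctions, read 2.40, 2.92 and 2.86 in treated p53+/+ cells and −2.86, −2.54 and −2.48 in treated p53-/- cells. DSG3, a desmosomal cadherin, read 2.22, 2.97 and 2.86 against −2.53, −1.80 and −1.66. Both passed background on every array and were apart between the genotypes at every treated time, while the rule named no gene as lower in this list.

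Of 11 regulators of epithelial identity, 10 passed background on 1 or more arrays. Of these, 5 were at least 2-fold higher in treated p53+/+ cells, against 6.68% of all genes, and 0 lower, against 5.95%. The median was 1.10. EHF, an epithelial ETS factor, was dim on all p53-/- arrays and at least 14.8-fold higher in treated p53+/+ cells. ESRP1, which directs epithelial splicing, read −1.73, −1.31 and −1.48 in treated p53+/+ cells, and −4.47 at 48 h on the 1 treated p53-/- array where it was well above background. KLF4 had a negative difference, with a mean of −0.47 and a limma adjusted p of 0.130. GRHL1 read −3.62, −5.01 and −5.54 in treated p53+/+ cells, the last 2 not well above background, against −3.07, −3.44 and −2.73 (adjusted p = 0.0672 from limma).

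The mesenchymal list had the opposite sign by its median, with genes of either sign. Its genes that passed background on 1 or more arrays numbered 19. Of these, 10 were at least 2-fold lower in treated p53+/+ cells, against 5.95% of all genes, and 2 higher, against 6.68%. Limma called 9 lower and 3 higher, against 1487 and 1812 of 15811 genes. The median was −1.38. WNT5A, a secreted Wnt ligand, read −1.97, −3.20 and −2.24 in treated p53+/+ cells against 1.74, 1.19 and 0.48. POSTN, the matrix protein periostin, had a mean difference of −4.43 but a limma adjusted p of 0.0786, and it was not well above background in p53+/+ cells at 48 h. The 2 that were higher were SPARC, a matrix protein, at 1.80, 1.89 and 1.45 against −4.33, −4.35 and −3.83, and ACTA2, smooth muscle actin, with a mean difference of 3.09. Both opposed the direction of the list at every treated time, and limma called both (adjusted p = 0.000111 and 0.00323).

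The 14 other transcription factors linked to EMT were all past background on 1 or more arrays. Of these, 2 were at least 2-fold higher in treated p53+/+ cells and 2 lower, against 6.68% and 5.95% of all genes. The median was −0.76. FOXC2, a forkhead factor, was among the lower, with a mean difference of −1.68 that includes a reading not well above background in p53+/+ cells at 12 h. KLF8 was higher in p53+/+ cells by a mean of 1.89. SNAI3, the third Snail gene, was not well above background on any p53-/- array and was at least 2.93-fold higher in treated p53+/+ cells, the opposite of SNAI1 and SNAI2.

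Of 20 other cadherin genes, 11 passed background on 1 or more arrays and 4 on all 8. Only CDH10 (1 of 11) was at least 2-fold higher in treated p53+/+ cells, against 6.68% of all genes. Its fold is a bound of at least 23.9, as CDH10 was not well above background on the treated p53-/- arrays. None was lower (0 of 11), against 5.95%, and the median was 0.22. CDH18 and CDH24 had mean differences of 2.18 and −1.41 and missed the threshold of limma (adjusted p = 0.0568 and 0.0532), and that of CDH18 includes a reading not well above background in p53-/- cells at 12 h. CDH7 was not well above background on any p53+/+ array and its signal was too low for a bound.

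**Figure D4:**
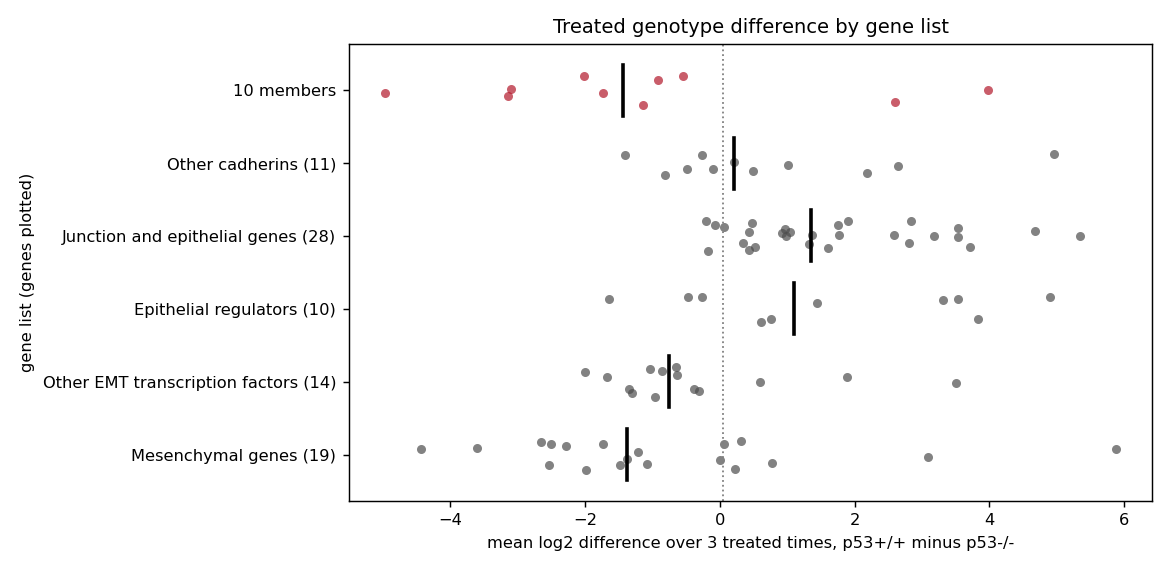
Mean log2 difference of p53+/+ minus p53-/- over the 3 treated times (horizontal axis) for each gene well above background on at least 1 array, by list, with the vertical offset within a list only for legibility. Black bars are list medians, 1.35 for junction and epithelial genes, −1.38 for mesenchymal genes and −1.44 for the 10 members, and the dotted line is the median of all genes, 0.04.

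Markers of cell types were read on the same arrays. Of 7 basal mammary markers 6 were well above background on all 8 arrays, among them KRT5, KRT14 and KRT17, whereas TP63 was on 3. Summed over the list as linear signal, their log2 level was 8.53 to 8.69 in treated p53+/+ cells and 6.87 to 7.17 in treated p53-/- cells. Of 7 luminal markers 3 passed background on every array and KIT on none, with sums of 6.06 to 6.57 and 5.30 to 6.01. Of 8 stromal markers COL1A2, COL3A1 and THY1 were well above background on none and DCN on all 8. The stromal sum was 2.13 to 2.40 in treated p53+/+ cells and 5.73 to 6.08 in treated p53-/- cells. It was 5.77 on the array labelled p53+/+ 0 h. As for FN1 and CDH2, the treated p53+/+ arrays lay below all others. In p53-/- cells the stromal sum was 5.89 at 0 h and 6.08 at 48 h, which follows DCN (5.88 and 6.07). From 0 to 48 h there, LUM went from −1.09 to −2.63, COL1A1 from −2.28 to −3.34 and PDGFRB from −4.01 to −5.66. PDGFRA went from −5.12 to −4.82, and FN1 and CDH2 were lower at 48 h. DCN alone gave 2.10 to 2.38 against 5.71 to 6.07, and its part in the members' differences was not tested. Of 4 blood markers PTPRC and CD14 passed background on every array, with sums of 0.88 to 1.74 and 2.03 to 2.62. CD14 alone gave 0.78 to 1.67 and 1.99 to 2.60, while PTPRC overlapped between the treated genotypes. Of 3 endothelial markers 0 were well above background on all 8 arrays, with sums of −3.57 to −3.24 and −1.87 to −1.25. PECAM1 alone gave −6.04 to −4.76 and −2.21 to −1.58. VWF overlapped between the treated genotypes, and KDR was well above background on 1 array. Fewer cells of a type and less RNA per cell cannot be told apart in these samples.

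CDH1 and FN1 had the widest ranges among the members well above background on all 8 arrays, 5.63 and 4.61 on the log2 scale, and the genes most like them were sought among 11827 others. Those most like CDH1 were ATP6V0A1, a subunit of the vacuolar proton pump (r = 0.997 over 8 arrays), KLC3, a kinesin light chain (r = 0.993), and ISCU, a scaffold of iron-sulphur cluster assembly (r = 0.992). Those most like FN1 were ANP32B, an acidic nuclear protein (r = 0.995), MAP1B, a microtubule-associated protein (r = 0.993), and IFI44L, an interferon-induced gene (r = 0.991). The arrays share genotypes and a time course, and 287 genes reached r of 0.95 with CDH1 and 172 with FN1. A negative r of at least that size was found for 131 genes with CDH1 and 398 with FN1. These are therefore descriptions of similar or opposite profiles. The levels of ATP6V0A1 ran from 2.50 to 4.58, those of ANP32B from 2.26 to 3.81 and those of IFI44L from −3.30 to 1.51. Between members, CDH1 and CDH2 ran in opposite directions (r = −0.986), CDH1 and ZEB1 likewise (r = −0.981), and SNAI2 and TWIST1 were the least alike in absolute size (r = 0.508).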

How the data were processed

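Agilent SurePrint G3 arrays in 1 colour, 8 in number, held RNA of MCF10A cells of both genotypes taken at 0, 12, 24 or 48 h, and were grouped from the sample labels. The authors deposited scanner output (Agilent Feature Extraction 10.7.3.1 in the submitters' processing notes, header build hg19) whose processed signal is an intensity corrected for background by the scanner software. The deposited series table holds the same values (503808 of 503808 equal within a relative tolerance of 1e-05). No normalization between arrays is given in the sources used here.

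Outlier spots were left out. Log2 signals were set against the 75th percentile of their array and averaged per probe, and 27227 of 42391 probes were named through RefSeq transcripts (GRCh38.p14), giving 20296 genes. Each gene took its brightest probe on average. A probe was well above background where most of its spots were. A higher or lower call by size needed 2-fold at all 3 treated times. Where a probe was not well above background on a whole group, the fold is a bound, taken from the mean of the brighter group and, per dim array, the higher of its reading and the lowest signal well above background. The 28947 probes that passed background on 1 or more arrays entered limma 3.58.1 in R 4.3.3 (lmFit and eBayes, 4 residual degrees of freedom in each fit), on genotype over the 6 treated arrays and on genotype, treatment and interaction over 8, with Benjamini-Hochberg adjustment over all probes. The fits were tested on simulated data. The number of arrays limits the precision.

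Named genes were the 10 members, at most 4 genes of each list (the 2 highest and 2 lowest by the smallest treated difference, where all 3 differences had the same sign and the gene was well above background at all 3 times in the higher genotype), the 3 genes most correlated with each of the 2 widest-ranging members, and CDKN1A. Some genes of this rule are not reported here. Members and lists were chosen with earlier results of these data known. Alternatives were quantile, median and no scaling, normexp (offset 50) on the median spot signal, the mean of all probes, stricter and no filters, a 3-fold rule, at least 2 of 3 times, each time left out, time as a block and another baseline. A signal floor and the change from 12 h were added after seeing the data. Python 3.11.15, numpy 2.4.6, pandas 2.3.3 and matplotlib 3.10.9 were used.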

Additional observations from a re-analysis of the deposited data

Results flagged for a closer look

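The change after ADR differed between genotypes for SNAI1 in the limma interaction, by −5.50 on the log2 scale (adjusted p = 0.0282 from limma). For SNAI2 the p53+/+ changes were negative and the p53-/- changes positive at all 3 treated times, with an interaction of −2.10 that did not pass the threshold (adjusted p = 0.0640 from limma). Both values rest on the array labelled p53+/+ 0 h. Measured from p53-/- 0 h, the p53+/+ changes of SNAI2 were smaller, −0.29, −0.34 and −0.48, and kept their sign. Groups of 1 array leave no spread in which to look for outlying samples.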

How the results depend on the processing

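The members that were at least 2-fold up in p53+/+ cells numbered 2 under every scaling, filter and size rule run, and those down between 5 and 7, except in the change from 12 h to both later times, which leaves out the array labelled p53+/+ 0 h and gave 0 up and 1 down. That 1 was ZEB2, whose brighter probe was dim at all 3 times. In p53-/- cells, members up changed from 0 to 1 with no scaling, to 2 with at least 2 of 3 times and to between 0 and 1 with each time left out. Members down there changed from 1 to 0 with no scaling, the mean of all probes or a 3-fold rule, to 2 with at least 2 of 3 times and to between 1 and 2 with each time left out. Members at least 2-fold lower in treated p53+/+ cells numbered 5, and 3 with normexp, with probes well above background on all 8 arrays or with a 3-fold rule, but 7 with no scaling and 6 with at least 2 of 3 times or without the 48 h arrays.

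In the limma fit of treated arrays, 5176 probes became 9393 with no scaling and 9635 with normexp. They became 12491 with no filter, 9421 with a signal floor and between 291 and 2664 with each time left out. The 9 members called became 10 with quantile normalization, no scaling or normexp, and 8 with the mean of all probes. With the stricter filter 7 of 8 tested were called, and between 1 and 8 members with each time left out. In the limma interaction, 505 probes became 1296 with no scaling, 1277 with normexp, 947 with a signal floor, 60 with time as a block and between 0 and 42 with each time left out (3076 at an unadjusted p under 0.05 where 0 passed). The 1 member called became 2 with no scaling, 4 with normexp, 3 with the stricter filter or the signal floor and 0 with time as a block or any time left out. The interaction of TWIST1 turned from 0.16 to −0.66 with no scaling and ran from −0.066 (without the 48 h arrays) to 0.29 with each time left out. Of all single-gene values, 442 kept their direction and side of the threshold, or moved by less than their spread over time, 43 moved by more, 17 lost the threshold, 12 gained it and 2 reversed. The causes were not tested.

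VIM passed the threshold of the treated fit with quantile normalization, no scaling and normexp (limma adjusted p = 0.0180, 0.0150 and 0.0131), and TWIST1 lost it with the mean of all probes (0.128), which includes the dim probe. Over their alternatives, adjusted p-values ran from 0.000782 to 0.129 for CDH1 and from 1.215e-05 to 0.0426 for SNAI1. With no scaling the median treated difference of all genes was −0.37, −0.52 and −0.76 at 12, 24 and 48 h, against 0.08, −0.04 and 0.10 here. Signals near background (SNAI1, ZEB2) limit what the depth of signal can show.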
